A study of Mus musculus with 8 samples.

Results

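The genes described here are 29 genes of sterol and fatty acid synthesis, a set named for being driven by the sterol regulatory element-binding proteins (SREBPs). They were found by their gene names among the 54532 genes of the deposited read-count table. They comprise 18 enzymes of sterol synthesis, 6 genes of sterol control and transport and 5 enzymes of fatty acid synthesis. RNA came from the first molars of C57BL/6 mice, either wild type (WT) or with Wdr72 ablated (KO, genotype wdr72-/-). There were 4 WT libraries (WT 2, 3, 4 and 5) and 4 KO libraries (KO 1, 3, 4 and 5), numbered as in the labels, with no treatment. The Wdr72-/- colony was bought from the UC Davis Mouse Biology Center, and neither the deleted part of Wdr72 nor the litters of the controls are named in the labels. All mice are labelled postnatal day 12, whereas the text on dissection speaks of day 13, and which of these holds is not known. Pulp was removed and the remaining molar was homogenised, so the RNA, labelled as from enamel organ cells and ameloblasts, can hold RNA of every cell type left on the tooth. In bulk RNA of this kind, fewer cells of a type and less RNA per cell cannot be told apart. Nothing in the labels says whether a library came from 1 pup or several, so p-values rest on the differences between libraries, which may be technical.

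Cells make cholesterol from acetyl-CoA through the mevalonate pathway, and fatty acids from the same precursor through acetyl-CoA carboxylase and fatty acid synthase. The SREBPs are transcription factors made as membrane proteins of the endoplasmic reticulum, where SCAP escorts them and INSIG proteins hold them back while sterols are plentiful. When sterols fall, SCAP carries them to the Golgi, proteases release the active fragment, and that fragment binds sterol regulatory elements in the promoters of the enzymes. SREBP-2 acts mainly on sterol genes and SREBP-1c mainly on fatty acid genes. Ameloblasts, the epithelial cells that form enamel, secrete and take up large amounts of matrix and so turn over much membrane, and WDR72 is a protein of their vesicle traffic whose loss causes hypomaturation enamel defects.

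The promoters of 4 members are shown for the letters that the SREBPs and their usual partner NF-Y are known to bind. Sc5d, Srebf1 and Fasn are the members whose WT and KO libraries did not overlap. Hmgcs1, whose groups overlapped, is the only member in whose window an exact match to the sterol element core described below was found. Windows of 300 bases ran from 250 before to 50 after each start annotated by RefSeq (build GRCm38.p6). They were at hand for 23 of the 29 members. The sequences below give the 250 bases before the start, on the gene's strand. Srebf1 had 3 windows, of which only the outermost is shown. Reads were counted per gene, so which Srebf1 start was in use is not known. Capitals mark the NF-Y box CCAAT on either strand and the sterol element core TCACNCCAC on either strand, in which N is any base.
Hmgcs1, chr13:119690101-119690350, plus strand: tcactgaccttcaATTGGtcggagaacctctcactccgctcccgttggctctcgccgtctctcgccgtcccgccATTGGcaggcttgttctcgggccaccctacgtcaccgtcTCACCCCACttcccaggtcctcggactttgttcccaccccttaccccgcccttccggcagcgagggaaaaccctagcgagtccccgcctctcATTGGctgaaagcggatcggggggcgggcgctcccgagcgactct
Sc5d, chr9:42264301-42264550, minus strand: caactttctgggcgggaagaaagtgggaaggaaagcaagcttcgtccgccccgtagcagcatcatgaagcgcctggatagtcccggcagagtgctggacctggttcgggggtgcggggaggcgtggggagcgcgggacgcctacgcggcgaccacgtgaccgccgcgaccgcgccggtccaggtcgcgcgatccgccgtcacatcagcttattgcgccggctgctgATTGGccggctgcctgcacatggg
Srebf1, chr11:60222582-60222831, minus strand: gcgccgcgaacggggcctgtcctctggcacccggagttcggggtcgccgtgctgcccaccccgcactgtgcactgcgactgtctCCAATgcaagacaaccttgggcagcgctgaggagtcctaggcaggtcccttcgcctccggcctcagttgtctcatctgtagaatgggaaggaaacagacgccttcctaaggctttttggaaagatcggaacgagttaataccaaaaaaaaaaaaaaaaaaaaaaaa
Fasn, chr11:120824548-120824797, minus strand: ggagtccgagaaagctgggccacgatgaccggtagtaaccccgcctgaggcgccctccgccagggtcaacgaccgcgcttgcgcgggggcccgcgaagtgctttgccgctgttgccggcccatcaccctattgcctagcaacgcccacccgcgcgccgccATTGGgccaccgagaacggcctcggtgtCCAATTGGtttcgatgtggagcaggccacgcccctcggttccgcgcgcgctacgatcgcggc

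The core TCACNCCAC was found in the window of 1 of 23 members, Hmgcs1, where it reads TCACCCCAC and starts at base 114 of the window, and in those of 1.44% of all genes with a window. CCAAT was found for 20 of 23 members (87%), against 41.1% of all genes. The E-box CACGTG was found for 5 of 23, namely Dhcr7, Hsd17b7, Insig1, Sc5d and Scap, against 8.09%. All motifs were searched on both strands of the whole windows. Any 2 of them can share bases, but the sterol core of Hmgcs1 shares none with its CCAAT boxes, and the 2 boxes nearest the start of Fasn share bases with each other. A match is a description of the bases and not a measured binding site. Only exact matches were counted, so sites with other letters or outside the windows are missed. A member without a match may still have a sterol element.

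The libraries held 17084475 to 21887462 counted reads, and the 29 members together took 0.196% to 0.236% of them. Levels are given as CPM, the reads of a gene scaled to a common library total after TMM adjustment. Wdr72, the targeted gene, averaged 243 ± 63.6 CPM in WT against 45.1 ± 38.9 CPM in KO (SD, n = 4 each, adjusted p = 0.0803 in edgeR). No KO library reached the lowest WT library, and KO 1 had the highest KO value, 102 CPM. KO 5 was least like the rest, with a mean correlation across genes of 0.971, where the remaining 7 libraries had 0.984 to 0.987. The defining genes of the labelled cell type were present, with 10 ameloblast markers summing to 53485 to 97829 CPM in WT against 59825 to 81285 CPM in KO.

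All 29 members had enough reads to be tested. None of them passed an adjusted p of 0.05 in the comparison of KO with WT (edgeR's quasi-likelihood test, Benjamini-Hochberg adjustment over 16205 genes), in which 5 of 16205 genes passed (0.0309%). The smallest adjusted p of a member was 0.146, that of Sc5d. With DESeq2 the count of members was 1 of 29 (Sc5d), against 464 of 16205 genes. With limma voom with quality weights it was 5 of 29, against 1073 of 16205 genes. That is a larger share of the members than of all genes. The 5 were Sc5d, Idi1 and Msmo1, lower in KO, and Srebf1 and Fasn, higher in KO. At an unadjusted p of 0.05 in edgeR, 3 members were higher in KO (10.3%, against 8.7% of all genes) and 2 were lower (6.9%, against 6.98%). The KO libraries lay wholly above the WT libraries for 2 members, Srebf1 and Fasn (6.9%, against 5.5% of all genes), and wholly below them for 1, Sc5d (3.45%, against 5.44%). The shares at the unadjusted p in edgeR and of groups without overlap are near those of all genes. Of the 29 members 11 had a higher mean in KO and 18 a lower one by log2 fold change (KO minus WT), whose median was -0.049 over the members and 0.021 over all genes tested. Where a pair of means is given without groups, WT comes first. The largest difference of a member in either direction was -0.50 on the log2 scale, that of Idi1.

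**Figure D1:**
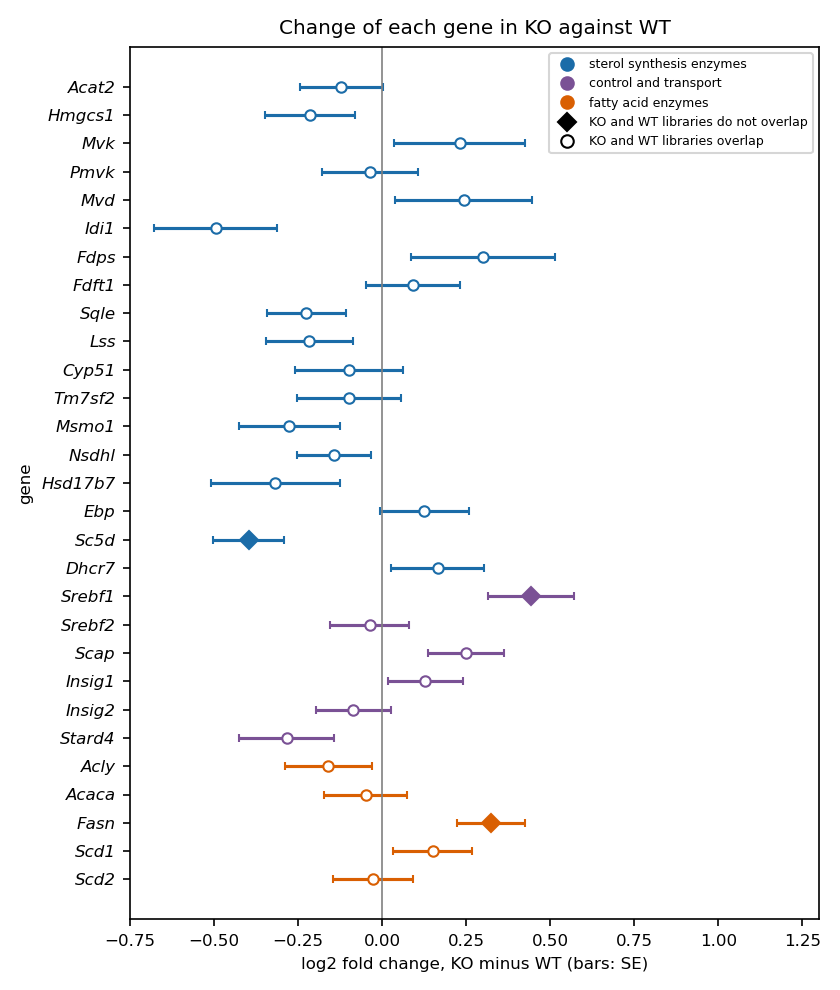
Log2 fold change (x axis, KO minus WT, bars SE from edgeR) of each of the 29 genes (y axis), coloured by role. Filled diamonds mark Sc5d, Srebf1 and Fasn, whose 4 KO libraries do not overlap the 4 WT libraries; values run from -0.50 for Idi1 to 0.44 for Srebf1.

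Among the genes that control the pathway, Srebf1, which encodes SREBP-1 (chromosome 11, 60199089 to 60222581, GRCm38), had the highest fold change. It was at 81.6, 83.1, 97.6 and 94.5 CPM in WT 2, 3, 4 and 5, and at 135, 106, 105 and 139 CPM in KO 1, 3, 4 and 5. All 4 KO libraries were above all 4 WT libraries, with KO 1 and KO 5 well above KO 3 and KO 4. The means were 89.2 ± 8.01 and 121 ± 18.4 CPM (SD, n = 4 each), and the log2 fold change was 0.44 (SE 0.13, adjusted p = 0.169 in edgeR and 0.0329 in limma voom). Rai1 overlaps Srebf1 on the opposite strand with 53.9% as many reads, and the 2 genes share 1.94% of Srebf1's exon bases, so a small part of its count is uncertain. Scap, the escort protein (chromosome 9, 110333288 to 110384950), had the same pair of libraries highest. It was at 71.0, 72.4, 70.0 and 63.8 CPM in WT 2, 3, 4 and 5, and at 91.4, 76.9, 70.6 and 90.8 CPM in KO 1, 3, 4 and 5. KO 1, 3 and 5 lay above every WT library, and KO 4 lay within them (log2 fold change 0.25, SE 0.11, adjusted p = 0.312 in edgeR).

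Srebf2, which encodes SREBP-2, averaged 170.1 ± 15.8 CPM in WT against 166 ± 16.0 CPM in KO (log2 fold change -0.037, SE 0.12), so that its difference was smaller than the SD of either group. Srebf2 had 183, 182, 165 and 150.1 CPM in WT 2, 3, 4 and 5, and 184, 169.5, 146 and 164 CPM in KO 1, 3, 4 and 5. WT 5 was the lowest WT library and KO 4 the lowest of all. Insig1, an INSIG gene that is itself a well-known SREBP target, was at 42.1 ± 3.48 and 46.0 ± 4.80 CPM in the 2 groups, and Insig2 at 59.5 ± 7.90 and 56.1 ± 3 CPM, with log2 fold changes of 0.13 and -0.086. Stard4, a carrier of cholesterol between membranes, was at 28.4 ± 5.36 and 23.3 ± 1.27 CPM (log2 fold change -0.28, SE 0.14). Stard4 had 33.7, 29.4, 29.3 and 20.9 CPM in WT 2, 3, 4 and 5, and 22.4, 24.9, 23.7 and 22.1 CPM in KO 1, 3, 4 and 5. Its lowest library was WT 5, and without WT 5 the KO libraries lay wholly below the others.

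The 5 fatty acid enzymes did not share a direction, with 2 higher and 3 lower by sign. Fasn, fatty acid synthase (chromosome 11, 120805846 to 120824547), was the one with no overlap. It was at 59.9, 55.2, 49.7 and 54.6 CPM in WT 2, 3, 4 and 5, and at 73.3, 69.6, 69.3 and 62.4 CPM in KO 1, 3, 4 and 5. The lowest KO value, that of KO 5, was above the highest WT value, that of WT 2. Its means were 54.8 ± 4.13 and 68.7 ± 4.57 CPM, a log2 fold change of 0.32 (SE 0.10, adjusted p = 0.187 in edgeR and 0.0231 in limma voom). Scaled by library totals, Fasn's groups overlapped. Acly, which makes cytosolic acetyl-CoA from citrate, was at 194 ± 10.5 CPM in WT and at 173 ± 27.3 CPM among the KO libraries, and Acaca, acetyl-CoA carboxylase, at 41.4 ± 2.41 and 40.0 ± 6.08 CPM. In both the lowest of all 8 libraries was KO 5 (135 and 31.8 CPM). The stearoyl-CoA desaturase Scd2 (log2 fold change -0.028, SE 0.12) was at 472 ± 24.2 and 463 ± 40.6 CPM, and its paralog Scd1 (log2 fold change 0.15, SE 0.12) at 25.9 ± 3.12 and 28.8 ± 1.77 CPM. Per length Scd2 was the most abundant member, at 86.6 ± 4.43 RPKM (CPM per kilobase of gene length) in WT, above Scd1 at 5.36 ± 0.645 RPKM. Scd2 had 496, 490.2, 450.4 and 452 CPM in WT 2, 3, 4 and 5, and 434, 523, 449.6 and 447 CPM in KO 1, 3, 4 and 5. KO 3 held the highest and KO 1 the lowest value. Scd1 and Scd2 are close paralogs, so reads they share make both counts uncertain.

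**Figure D2:**
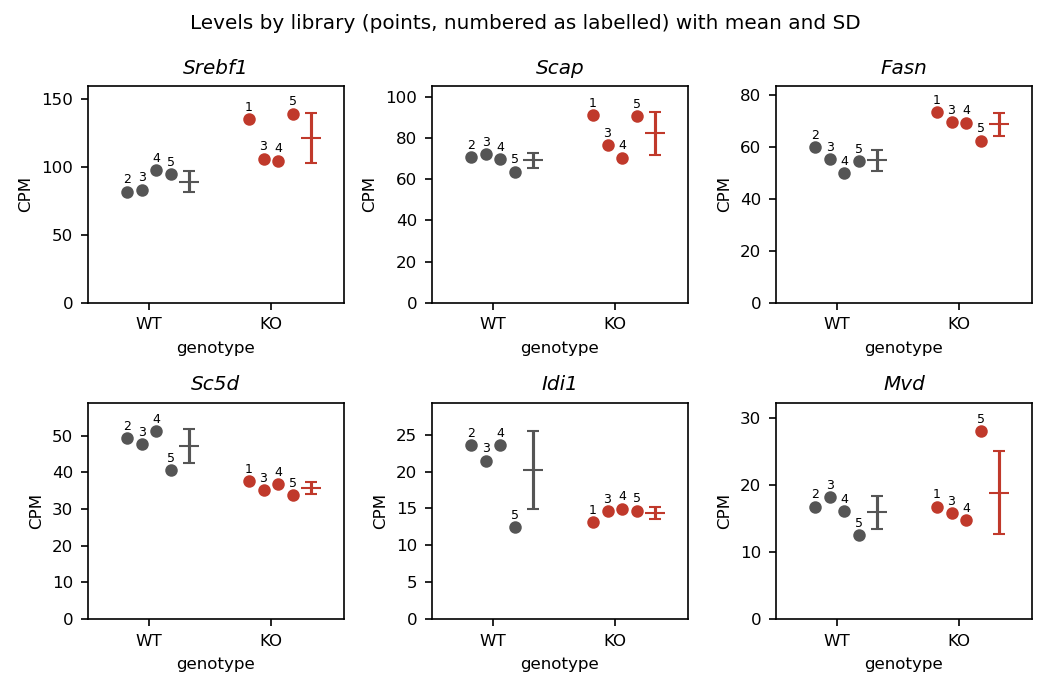
CPM (y axis, from 0) of 6 genes in each WT and KO library (points, numbered as in the labels), with the mean and SD beside them. Srebf1 and Fasn lie higher and Sc5d lower in every KO library, while WT 5 holds the lowest Idi1 value (12.4 CPM) and KO 5 the highest Mvd value (28.1 CPM).

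Of the 18 sterol synthesis enzymes, 12 had a lower and 6 a higher mean in KO by log2 fold change, with a median of -0.11. Sc5d, the sterol-C5-desaturase late in the pathway (chromosome 9, 42251595 to 42264256, on the chromosome that also carries Wdr72 and Scap), had the smallest p. It was at 49.3, 47.6, 51.2 and 40.5 CPM in WT 2, 3, 4 and 5, and at 37.6, 35.1, 36.8 and 33.8 CPM in KO 1, 3, 4 and 5. The highest KO library, KO 1, was below the lowest WT library, WT 5. The means were 47.2 ± 4.66 and 35.8 ± 1.67 CPM (log2 fold change -0.40, SE 0.11). Sc5d passed with DESeq2 (adjusted p = 0.0195) and with limma voom (adjusted p = 0.0151), and over all 19 alternatives its adjusted p ran from 0.0151 to 0.951, the highest with the Xist covariate. With that covariate its log2 fold change was -0.43 (SE 0.16), and no member had an adjusted p below 0.951 in edgeR. Xist averaged 637 CPM in WT and 243 CPM in KO, so the covariate goes partly with genotype.

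The first steps, from acetyl-CoA to the isoprenoid unit, differed in sign. Hmgcs1, which makes HMG-CoA and whose promoter holds the sterol core shown above, averaged 171 ± 28.8 CPM in WT against 148 ± 9.26 CPM in KO (log2 fold change -0.21, SE 0.13). Hmgcs1 had 177, 183, 196 and 129.9 CPM in WT 2, 3, 4 and 5, and 147, 154, 135 and 155 CPM in KO 1, 3, 4 and 5. WT 2, 3 and 4 were above every KO library and WT 5 was below them all. Acat2, the cytosolic thiolase before it, was at 41.4 ± 5.23 and 38.1 ± 3.94 CPM (log2 fold change -0.12, SE 0.12). Mevalonate kinase, Mvk, and mevalonate diphosphate decarboxylase, Mvd, had positive log2 fold changes of 0.23 (SE 0.19) and 0.24 (SE 0.20) that rested on KO 5. Mvk was at 33.7 CPM in KO 5 and at 17.1 to 20.98 CPM in the other 7 libraries. Mvd was at 28.1 CPM in KO 5 and at 12.5 to 18.2 CPM in the others. Without KO 5 the log2 fold changes were -0.036 and -0.015. Pmvk, the kinase between them, had a log2 fold change of -0.038 (SE 0.14). Pmvk had 20.98, 18.3, 17.2 and 19.3 CPM in WT 2, 3, 4 and 5, and 19.3, 15.1, 16.7 and 22.9 CPM in KO 1, 3, 4 and 5. KO 5 was the highest and KO 3 the lowest, with the WT libraries between.

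Idi1, the isomerase that interconverts the isoprenoid units (chromosome 13, 8885501 to 8892451), had the lowest fold change of the members. It was at 23.6, 21.5, 23.5 and 12.4 CPM in WT 2, 3, 4 and 5, and at 13.2, 14.6, 14.96 and 14.7 CPM in KO 1, 3, 4 and 5. WT 2, 3 and 4 were above every KO library, and WT 5 was below all of them. The log2 fold change was -0.50 (SE 0.18, adjusted p = 0.245 in edgeR). Without WT 5 it was -0.67 (adjusted p = 0.0592 in edgeR), and its adjusted p over the alternatives ranged from 0.0468 to 0.951. Fdps, farnesyl diphosphate synthase, had only 34 to 85 reads per library, 0.656 ± 0.154 RPKM in WT, the lowest level per length of all members, compared with 5.78 ± 1.52 RPKM for Idi1 before it and 12.8 ± 1.997 RPKM for Fdft1 after it. Its log2 fold change was 0.30 (SE 0.21). The Fdps gene has processed copies in the mouse genome, of which the table names 1 with no read, so its count is uncertain.

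Fdft1 and Sqle, squalene synthase and squalene epoxidase, commit carbon to sterols. Sqle was at 178 ± 20.3 and 152 ± 12.3 CPM (log2 fold change -0.23, SE 0.12). Sqle had 192, 199, 161 and 160.4 CPM in WT 2, 3, 4 and 5, and 167, 155, 137 and 149.6 CPM in KO 1, 3, 4 and 5. Only KO 1 among the KO libraries was above the lowest WT libraries, WT 4 and WT 5. Fdft1 was at 53.9 ± 8.44 and 57.5 ± 8.18 CPM (log2 fold change 0.092, SE 0.14), but the lysosomal protease gene Ctsb overlaps it on the opposite strand with 2096% as many reads and covers 18.3% of its exon bases, so its count is uncertain. From the closing of the sterol rings on, the log2 fold changes were -0.22 (SE 0.13) for Lss, which makes lanosterol, -0.098 (SE 0.16) for the demethylase Cyp51, -0.099 (SE 0.16) for the reductase Tm7sf2 and -0.28 (SE 0.15) for the oxidase Msmo1. They were -0.14 (SE 0.11) for the decarboxylase Nsdhl and -0.32 (SE 0.19) for the ketoreductase Hsd17b7. All 6 were lower in mean, and all 6 had groups that overlapped. Msmo1 had 66.7, 69.0, 65.7 and 42.5 CPM in WT 2, 3, 4 and 5, and 48.3, 48.7, 47.0 and 57.3 CPM in KO 1, 3, 4 and 5. This order of Msmo1, with WT 2, 3 and 4 above every KO library and WT 5 below, was also that of Idi1 and Hmgcs1. Hsd17b7 had 37.5, 47.1, 69.7 and 43.0 CPM in WT 2, 3, 4 and 5, and 45.4, 45.7, 36.1 and 31.2 CPM in KO 1, 3, 4 and 5. For Hsd17b7, WT 4 was far above the others and KO 5 the lowest. Cyp51 overlaps Akap9, which had 101% as many reads but shares 3.76% of its exon bases, and Tm7sf2 overlaps Vps51, which had 32.6% as many reads and shares 12.1%. The remaining sterol enzymes were the isomerase Ebp, which acts before Sc5d, and the reductase Dhcr7, which acts after it, with log2 fold changes of 0.13 (SE 0.13) and 0.17 (SE 0.14). Ebp was highest in KO 5, at 55.6 CPM, and its fold change was -0.0059 without that library.

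Per length, the members spanned a wide range in WT. Below Scd2, the next in order were Hmgcs1 (37.3 ± 6.27 RPKM), Acly (36.7 ± 1.99 RPKM), Sqle (32.1 ± 3.65 RPKM) and Cyp51 (27.2 ± 6.00 RPKM). Hmgcs1 and Acly differed by less than the SD of either, and Sqle and Cyp51 by less than the SD of Cyp51. Srebf2, at 23.7 ± 2.20 RPKM, was above Srebf1, at 15.8 ± 1.42 RPKM, and in KO the pair were at 23.1 ± 2.23 and 21.5 ± 3.26 RPKM. Fasn was at 5.01 ± 0.377 RPKM in WT, and the lowest members above Fdps were Lss (2.62 ± 0.353 RPKM), Acaca (2.43 ± 0.141 RPKM), Dhcr7 (1.67 ± 0.227 RPKM) and Tm7sf2 (1.59 ± 0.201 RPKM). The authors' gene length can exceed that of the transcripts present, so this order is uncertain. For Tm7sf2 it was 5593 bases, against 4403 exon bases in GENCODE M21.

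**Figure D3:**
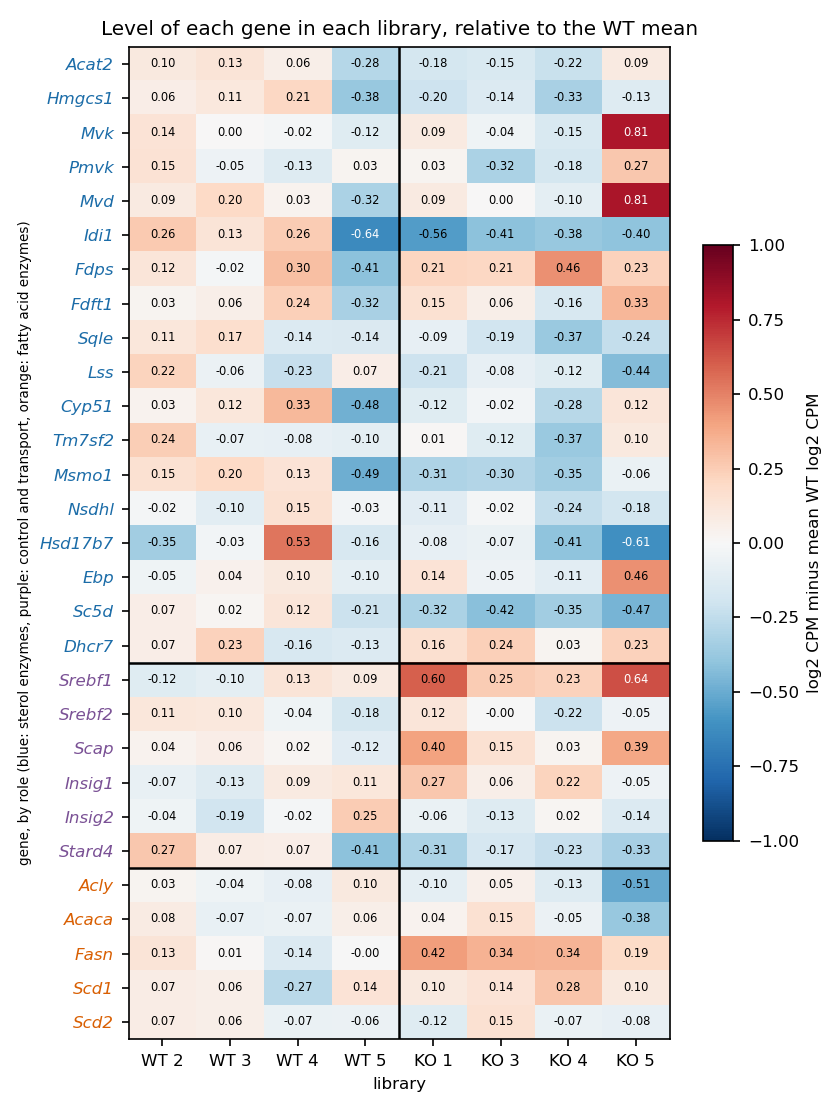
Log2 CPM of each member in each library minus its mean log2 CPM over the 4 WT libraries (colour and printed value, with 0.5 CPM added before the log), in 8 columns by library and 29 rows by role. WT 5 is low across most sterol enzymes (Idi1, Msmo1, Cyp51), and KO 5 is high for Mvk and Mvd and low for Acly and Acaca.

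Most sterol enzymes shared the lowest library within each genotype. WT 5 was the lowest WT library for 13 of 18 enzymes (72.2%, against 28.9% of all genes tested), and KO 4 was the lowest KO library for 12 (66.7%, against 18.4%). KO 5 was the highest KO library for 10 of 18 (55.6%, against 38.3%). Among genes with a mean CPM at or above that of the lowest member, it was the highest for 41.9%. The highest WT library was less shared, with WT 4 highest for 8 of 18 (44.4%, against 26.9% of all genes tested). Summed over the 18 enzymes, the level was 942, 963, 985 and 747 CPM in WT 2, 3, 4 and 5 and 831, 821, 738 and 886 CPM in KO 1, 3, 4 and 5. WT 2, 3 and 4 were above every KO library, and WT 5 lay with KO 4 below the rest. The same libraries were low in the ameloblast markers, whose summed CPM was 70267, 79913, 97829 and 53485 in WT and 77427, 77748, 59825 and 81285 in KO, with the enamel matrix gene Ambn and then Odam adding the most. In WT the 4 libraries had the same order by both sums, and in KO the order differed only by the near-equal KO 1 and KO 3. WT 5 and KO 4 were also the highest of their groups in the 8 odontoblast and bone markers, which summed to 42113, 40228, 44787 and 78676 CPM in WT and 67657, 65107, 82795 and 50411 CPM in KO. On mean log2(CPM + 1), which weights each gene alike, WT 5 and KO 4 were again the lowest of their groups for both the sterol enzymes (4.80 and 4.83) and the ameloblast markers (9.85 and 10.19). The rest of the order was not kept on that scale. KO 5 was the highest KO library for the sterol enzymes (5.08). For the ameloblast markers KO 5 (10.23) was next above KO 4, and KO 3 was the highest KO library (10.60). WT 2 was above WT 3 for the sterol enzymes and below it for the ameloblast markers. The sums are shares of 1 total per library, and the part of the cell mixture in the members' levels was not tested.

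**Figure D4:**
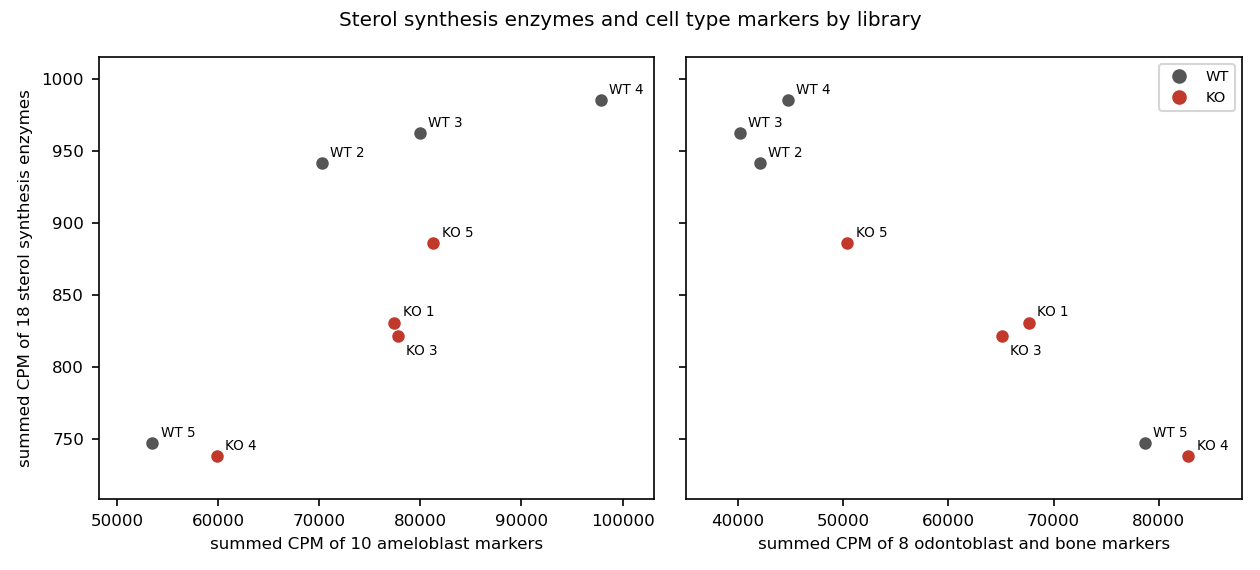
Summed CPM of the 18 sterol synthesis enzymes (y axis) against the summed CPM of 10 ameloblast markers (left x axis) and of 8 odontoblast and bone markers (right x axis), with 1 point per library. WT 5 and KO 4 lie lowest on the y axis, lowest for the ameloblast markers within their groups and highest for the odontoblast and bone markers.

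The fatty acid enzymes did not follow that pattern. Their sum was 824, 799.6, 744 and 785 CPM in WT 2, 3, 4 and 5 and 758, 868, 766 and 704 CPM in KO 1, 3, 4 and 5, so that WT 5 was neither highest nor lowest in its group and KO 5 the lowest of all. WT 4, the highest library for the sterol enzymes, was the lowest WT library for 4 of 5 fatty acid enzymes.

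The members' fold changes were ordered by the base composition of their transcripts. Across the 29 members the Spearman correlation of log2 fold change with the GC content of the longest transcript was 0.77, and across the 18 sterol enzymes 0.85, against 0.43 across 16194 genes tested. These are correlations across genes measured in the same 8 libraries, not across replicates. Of the 14 members with GC above their median of 49.5%, 9 were higher in KO, and of the 15 at or below it, 2 were. Idi1 and Sc5d had the lowest GC content of the members, 41.9% and 42.9%, and the 5 highest were Scap (59.1%), Mvd (59.0%), Srebf1 (58.4%), Srebf2 (57.9%) and Fasn (57.9%). Srebf2 and the next in order, Pmvk (57.0%), had log2 fold changes of -0.037 and -0.038, and those of the other 4 were positive. By library, the correlation of a member's deviation with GC content was -0.70 in WT 4, 0.67 in KO 1 and 0.63 in KO 5, and between -0.48 and 0.21 in the other 5. Over all genes it was negative in each WT library (-0.43 to -0.16) and ran from -0.050 to 0.38 in the KO libraries. Without KO 1 and KO 5 the correlation of fold change with GC was 0.54 across the members and 0.23 across all genes.

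In an alternative chosen after seeing the data, each library's trend with GC over all genes was taken out by offsets. The correlation was then 0.034 over all genes, 0.43 over the members and 0.60 over the 18 sterol enzymes. The log2 fold changes became 0.25 for Srebf1, 0.16 for Fasn, 0.057 for Scap, -0.27 for Sc5d, -0.35 for Idi1, 0.059 for Mvk and 0.031 for Mvd. The smallest adjusted p of a member in edgeR was then 0.333, and none of Srebf1, Fasn and Sc5d kept groups that did not overlap, while Scd1 gained them. The 3 members with no overlap by TMM scaling had smaller fold changes once the trend with GC was removed. The trends themselves differed between the genotypes, so the offsets also take out any difference of KO from WT that follows GC. Smaller fold changes for low-GC genes lower in KO and high-GC genes higher in KO therefore follow from the offsets. The cause of the trends was not tested.

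**Figure D5:**
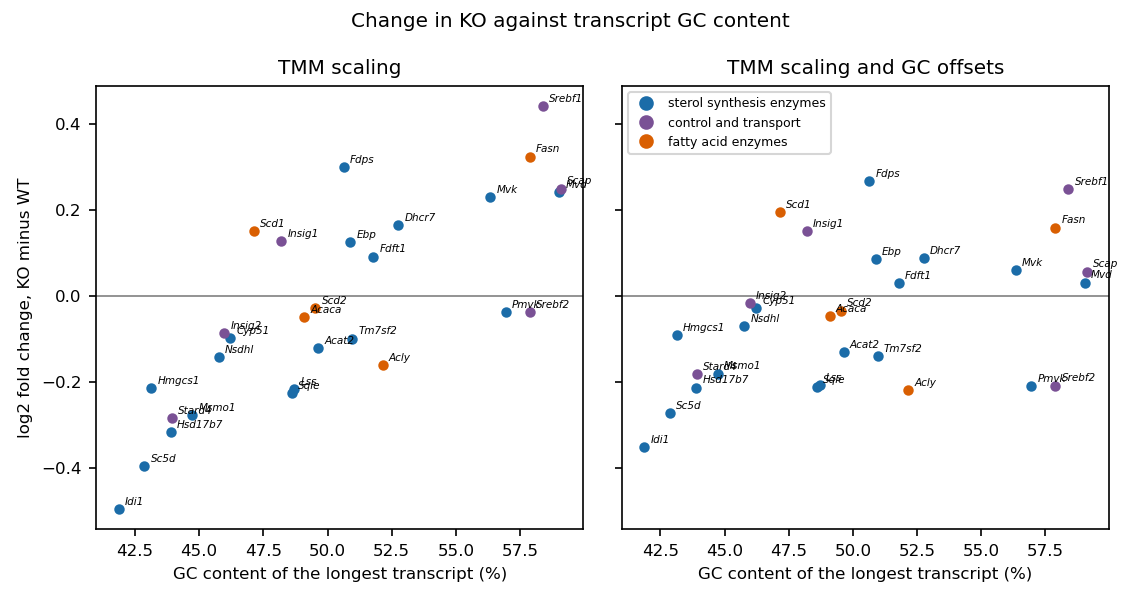
Log2 fold change (y axis, KO minus WT) of each member against the GC content of its longest transcript (x axis, %), with TMM scaling (left) and with GC offsets added (right), coloured by role. On the left the low-GC genes Idi1 and Sc5d lie lowest and the high-GC genes Srebf1 and Fasn highest (Spearman 0.77); on the right the same genes lie closer to 0 (Spearman 0.43).

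Other genes of lipid metabolism, in 7 lists that share 1 gene, had 0 members past the adjusted threshold in either direction in edgeR, where 105 distinct genes were tested. Before adjustment 10 of them (9.52%, against 8.7% of all genes) passed 0.05 with a higher and 7 (6.67%, against 6.98%) with a lower mean in KO, shares near those of all genes. The list of other sterol synthesis and isoprenoid genes (12 tested, 5 higher and 7 lower in mean) had a median log2 fold change of -0.019, with the smallest p for Lbr, a sterol reductase of the nuclear envelope (-0.31, SE 0.13), and Dhdds, which makes dolichol (0.24, SE 0.10). In the list of sterol uptake, transport and esterification (13 tested, median 0.11) the lipoprotein receptor Vldlr averaged 297 ± 23.0 CPM in WT against 211 ± 42.7 CPM in KO, with no overlap (log2 fold change -0.49, SE 0.16, adjusted p = 0.192 in edgeR). Tmem97, a sterol-regulated membrane protein, was at 15.3 ± 1.76 and 22.4 ± 6.54 CPM, with KO 5 at 32.0 CPM. Of 9 genes of SREBP cleavage and reductase turnover (median -0.0088), the ubiquitin ligase Syvn1 had no overlap. It was at 39.9 ± 1.999 and 48.9 ± 1.55 CPM (log2 fold change 0.29, SE 0.093).

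On the fatty acid side, 26 genes of synthesis, elongation and desaturation had a median log2 fold change of 0.10. The elongase Elovl4 was at 5.12 ± 0.654 and 7.46 ± 0.834 CPM, and Oxsm, of mitochondrial fatty acid synthesis, at 13.6 ± 0.742 and 10.3 ± 0.853 CPM, both with groups that did not overlap. Fatty acid activation and glycerolipid genes (18 tested) had a median of 0.037, with Agpat2 at 0.34 (SE 0.14) and Acsl4 at -0.31 (SE 0.13). Fatty acid oxidation genes (18 tested) had a median of 0.048, with Acads at 0.41 (SE 0.15) and Ehhadh at -0.28 (SE 0.13). In the list of liver X receptors and sterol efflux, 9 of 10 genes had a higher mean in KO (median 0.28), as had 53.1% of all genes tested. Of the 10, 3 passed an unadjusted p of 0.05, and 8.7% of all genes tested passed it with a higher mean. Nr1h2, a receptor of oxysterols that also drives Srebf1 in other tissues, averaged 87.7 ± 3.70 CPM in WT against 107 ± 13.1 CPM in KO, with no overlap (log2 fold change 0.28, SE 0.11, adjusted p = 0.260 in edgeR). KO 1 and KO 5 were its highest libraries, at 109 and 125 CPM, as they were for Srebf1. Both also had the highest correlations of deviation with GC content over all genes (0.32 and 0.38). A link between Nr1h2 and Srebf1 in these data was not tested.

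Markers of several other cell types had different means in the 2 groups. All 13 tested markers of oral keratinocytes were lower in KO, with a summed level of 867 to 1509 CPM in WT against 741 to 909.5 CPM in KO. In edgeR 10 of the 13 passed an unadjusted p of 0.05 with a lower mean, as did 6.98% of all genes. Of the 5 genes past the adjusted threshold in edgeR (0.0309% of all genes tested), 2 were among these 13. Another 1 was an odontoblast or bone marker, higher in KO. Markers of pulp mesenchyme were higher for 9 of 10 (3163 to 5068 and 4926 to 7222 CPM), odontoblast and bone markers for 5 of 8, and macrophage markers for 7 of 8 (214 to 237 and 252 to 323 CPM). Schwann cells, which make myelin lipid, had 11 of 11 markers higher, summing to 168 to 191 CPM in WT against 201 to 236 CPM in KO. Ameloblast markers were higher for 5 of 10. Of the adipocyte markers Lep was at 0 in all 8 libraries, Adipoq was at most 0.573 CPM, and the whole list summed to 4.72 to 7.43 CPM, below any library's Fasn alone. The part of the other cell types in the members' differences was not tested.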

How the data were processed

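The authors deposited 1 table of counts, whole reads per Ensembl gene in each library, not normalised, with gene lengths, names and coordinates. RNA was captured by polyA, per the labels' protocols, and the submitters' processing notes name CASAVA and mm39. The coordinates are those of GRCm38: GENCODE M21 held 54409 of the 54532 gene IDs, 98.8% of them with an equal start. Aligner, counter and strand setting were not given in the sources used here, so overlapping genes may share reads.

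The filter filterByExpr, at its default counts of 10 in a library and 15 in total, left 16205 genes. KO was compared with WT over all of them with the robust quasi-likelihood test of edgeR 4.0.16 in R 4.3.3 after TMM scaling. It was two-sided, without covariates, and Benjamini-Hochberg adjusted, at a threshold of 0.05. CPM, RPKM (CPM per kilobase of the authors' gene length) and SE (log2 fold change over the square root of F) were computed from the deposited counts. The biological coefficient of variation was 17.8%. The scripts were tested on simulated data.

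GC content was that of the longest GENCODE M21 transcript, held for 29 of 29 members and 16194 of 16205 genes. All members are named. From each other lipid list the 2 genes with the smallest p are named, of which 2 are not reported here. The members and lists were chosen with earlier results of these data known, and the orders of libraries and GC values were looked at after the data were seen. Alternatives tried were scaling by library totals, upper quartiles or DESeq2 size factors, DESeq2 1.42.0 itself, limma voom (limma 3.58.1), other filters, a block on the replicate number, an Xist covariate, GC offsets and left-out libraries.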

Additional observations from a re-analysis of the deposited data

Results flagged for a closer look

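In 5 of 58 groups of 4 libraries (29 members in WT and in KO), 1 library lay far from the other 3, by a gap above Dixon's critical value for 4 samples. Chance flags about 1 in 20 groups. KO 5 was high for Mvd, at 28.08 CPM against 16.79 CPM in the next library, and for Msmo1, at 57.3 against 48.68 CPM. WT 5 was low for Msmo1, at 42.5 against 65.7 CPM. KO 4 was high for Fdps, at 3.913 against 3.276 CPM, and WT 2 was high for Tm7sf2, at 10.58 against 8.4 CPM.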

How the results depend on the processing

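Over 19 alternatives, 18 of 29 members kept the sign of their fold change in each, and 24 were called in none. The count of members past the threshold was 0 except with DESeq2 (1) and limma voom (5), and was 0 with each single library left out. The count over all genes was 2 with library totals, 464 with DESeq2, 1073 with voom, 241 with no low-count filter, 1 with the Xist covariate, 11 without KO 1 and KO 5, and 0 (without WT 2, WT 3, KO 3 or KO 4) to 55 (without KO 5) with 1 library left out, and it was 16 without WT 4. With a block on the replicate number, it was 1, with 0 members. In that fit WT 2 and KO 1 have no partner of the same number and add nothing to the comparison. It therefore rests on fewer libraries than the main fit and has less power. Libraries with the same number did not deviate together (correlations -0.16, -0.11 and -0.15), and none correlated best with its own number, so the numbers were not taken to pair them. The median log2 fold change of the members ran from -0.10 to -0.012. The cause of these differences was not tested. Log2 fold changes that turned sign were as follows. With voom they were Mvk -0.064, Mvd -0.090, Fdft1 -0.050, Ebp -0.030, Insig2 0.030 and Acaca 0.024. With the replicate block it was Scd2 0.024. With the Xist covariate they were Fdft1 -0.17, Lss 0.024, Ebp -0.064, Acaca 0.029 and Scd2 0.0061. Without KO 1 and KO 5 they were Mvk -0.10, Mvd -0.065, Fdft1 -0.066, Ebp -0.084, Acaca 0.049 and Scd2 0.040. With 1 library left out, those of Pmvk from -0.16 (without KO 5) to 0.041 (without KO 3), Cyp51 from -0.23 (without WT 5) to 0.0096 (without WT 4), Fdft1 from -0.0053 (without WT 5) to 0.17 (without KO 4), Insig2 from -0.15 (without WT 3) to 0.0063 (without WT 5) and Scd2 from -0.098 (without KO 3) to 0.0043 (without KO 1) crossed 0. So did those of Srebf2 from -0.092 (without WT 5) to 0.021 (without KO 4), Mvk from -0.036 (without KO 5) to 0.34 (without KO 4), Mvd from -0.015 (without KO 5) to 0.34 (without KO 4), Ebp from -0.0059 (without KO 5) to 0.20 (without KO 4) and Acaca from -0.13 (without KO 3) to 0.047 (without KO 5). Depth limits Fdps most, with 34 reads in its lowest library.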

Other observations

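Nsdhl and Ebp are the 2 members on the X chromosome, and Xist, the RNA of the inactive X, averaged 637 ± 269 CPM in WT against 243 ± 81.4 CPM in KO (adjusted p = 0.116 in edgeR). With log2 Xist as a covariate Ebp was at -0.064 and Nsdhl at -0.31 on the log2 scale.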
